A study of Mus musculus with 9 samples.

Results

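The 10 genes studied here are ones that p53 switches on to halt the cell cycle or to restrain itself, and they were followed across mouse embryonic stem cells with a hairpin against Phf5a (shPhf5a), a hairpin against Paf1 (shPaf1) or a control hairpin (shControl). The members, Cdkn1a, Btg2, Plk2, Mdm2, Ccng1, Zmat3, Sesn1, Sesn2, Phlda3 and Gdf15, were chosen by name, and each was read from the probe set that carries its symbol alone. That gave 9 of the 10 members among 22180 genes tested, each with 1 such probe set. Gdf15 is not analysed here, nor is Trp53, which encodes p53 itself, and a further probe set that Zmat3 shares with another locus was left out.

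The cells were the Nanog-GFP (NG4) reporter line, grown on gelatin with LIF. All 3 groups (3 shPhf5a, 3 shPaf1 and 3 shControl arrays) had received a pLKO.1-based lentivirus and 72 h of selection in 2 μg/mL puromycin, so the controls also carry a virus and the drug. Each group rests on 1 hairpin as the labels name it, and no label says that replicates were separate cultures, so p-values measure the spread between these arrays, which may be technical. Phf5a belongs to the SF3b part of the spliceosome and Paf1 to a complex that accompanies RNA polymerase II through genes, and the comparisons ask how each knockdown changed expression.

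p53 is a transcription factor that is kept scarce by Mdm2, a ubiquitin ligase whose own gene p53 activates, which closes a feedback loop. When stress frees p53, it raises Cdkn1a (p21), which blocks cyclin-dependent kinases and holds cells before DNA replication. Embryonic stem cells are known for a short G1 phase, low p21 and a high level of p53.

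Phf5a mRNA stood at 34.4%, 55.9% and 39.6% of the control mean in shPhf5a replicates 1, 2 and 3, and Paf1 mRNA at 37.7%, 38.9% and 38.0% in the shPaf1 replicates. Each target was also called lower under the other hairpin: Phf5a stood at 64.3%, 62.0% and 76.2% in the shPaf1 replicates (log2 change -0.57, adjusted p = 0.0183), and Paf1 at 76.5%, 95.7% and 81.8% in the shPhf5a replicates (-0.25, adjusted p = 0.0267). Of 10 embryonic stem cell markers, 9 lay above the median of all genes (6.70 log2 units) in every group, and the tenth, Dppa5a, was dim throughout (6.04 in shPhf5a, 5.95 in shPaf1 and 6.12 in shControl). Of these 10, 7 were called lower and 1 higher in shPhf5a (median change -0.32), and 7 lower and 0 higher in shPaf1 (median -0.54), among them Nanog (-0.25 in shPhf5a and -0.84 in shPaf1) and Zfp42 (-0.51 and -0.82). For these and the other marker counts, 16.7% of all genes were called higher and 20.7% lower in shPhf5a. In shPaf1 the shares were 18.0% and 17.8%. The mean of the 10 was 10.13 to 10.33 in shPhf5a arrays, 9.96 to 9.98 in shPaf1 arrays and 10.44 to 10.47 in shControl arrays. Markers of other lineages moved with the hairpins: the mean of 8 trophoblast markers was 8.11 to 8.40 in shPhf5a arrays, 8.14 to 8.24 in shPaf1 arrays and 7.08 to 7.22 in shControl arrays, with 7, 7 and 4 of them above the median of all genes. Of the 8, 7 were called higher and 0 lower in shPhf5a, and 5 higher and 1 lower in shPaf1, led by Krt18 (2.49 in shPhf5a and 3.21 in shPaf1), Krt8 (1.98 and 2.68) and Hand1 (1.87 and 1.78), while Elf5, a defining trophoblast factor, was dim in every group (5.26 in shPhf5a, 5.24 in shPaf1 and 5.29 in shControl) and not called. The mean of 8 primitive endoderm markers was 7.52 to 7.83, 7.56 to 7.59 and 7.12 to 7.24 in the same order of groups, with 4 called higher and 1 lower in shPhf5a and 4 higher and 0 lower in shPaf1. For 8 fibroblast markers the array means were 5.93 to 5.99 in shPhf5a, 6.15 to 6.24 in shPaf1 and 5.90 to 5.93 in shControl, and for 5 macrophage and blood markers 6.37 to 6.52, 6.63 to 6.74 and 6.55 to 6.61. The part of such cells in the changes below was not tested, and in bulk RNA a change in the number of cells of a type and a change in RNA per cell cannot be told apart.

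Phf5a knockdown raised 8 of the 9 measured members and lowered 0, by 0.62 to 1.86 log2 units (1.53-fold to 3.63-fold), and Sesn1 did not pass. Among all genes 16.7% were called higher and 20.7% lower (limma, Benjamini-Hochberg adjusted p under 0.05). The median change of the 9 members was 1.02, against -0.03 for all genes. In all 9 members every shPhf5a array lay above every shControl array, where 19.9% of all genes did so.

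Paf1 knockdown raised 7 members, by 0.32 to 2.21, and lowered Sesn1, while Mdm2 did not pass, where 18.0% of all genes were called higher and 17.8% lower. The median member change was 0.62, against -0.01 for all genes. The arrays of the groups lay apart in 8 of the 9 members (7 upward and 1 downward) and in 48.3% of all genes. Both knockdowns are set against the same 3 control arrays, so their changes are not independent of each other.

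**Figure D1:**
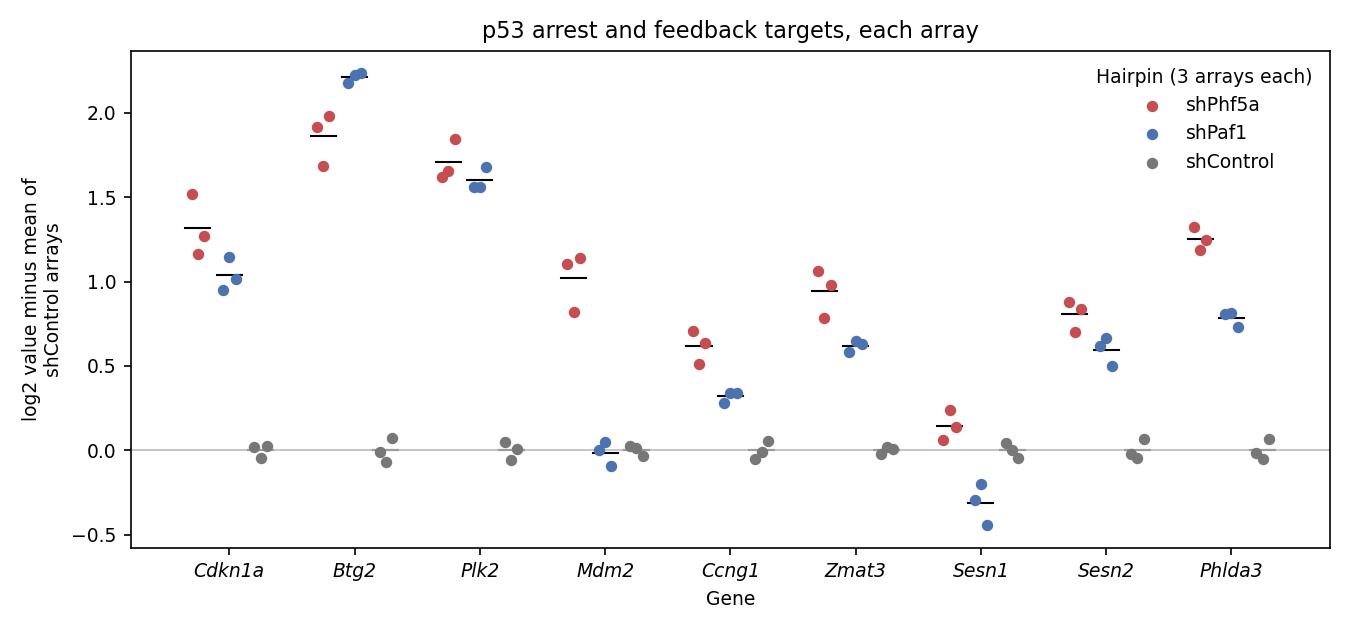
Each dot is 1 array, as its log2 value minus the mean of the 3 shControl arrays for that gene; bars mark group means. The shPhf5a arrays of Mdm2 sit at 0.82 to 1.14 while its shPaf1 arrays sit among the controls, and Sesn1 is the member whose shPaf1 arrays lie below the controls.

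The arrest genes Cdkn1a, Btg2 and Plk2 rose in both knockdowns. Cdkn1a, the p21 inhibitor of cyclin-dependent kinases, read 11.88, 11.53 and 11.63 log2 units in the shPhf5a arrays, 11.31, 11.51 and 11.38 in the shPaf1 arrays, and 10.38, 10.32 and 10.39 in the shControl arrays. The lowest shPaf1 array lay 0.92 above the highest control, and the lowest shPhf5a array exceeded the highest shPaf1 array by 0.02. The shPhf5a change was 1.32 (2.49-fold, SE 0.09, adjusted p = 6.91e-06), and the shPaf1 change was 1.04 (2.05-fold, SE 0.09, adjusted p = 1.63e-05).

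Btg2, an antiproliferative partner of the CCR4-NOT deadenylase, read 10.79, 10.56 and 10.86 in shPhf5a, 11.05, 11.10 and 11.11 in shPaf1, and 8.87, 8.81 and 8.95 in shControl. The 3 groups did not overlap, and the shPaf1 arrays were the highest. It rose by 1.86 in shPhf5a (SE 0.08, adjusted p = 9.68e-07) and by 2.21 in shPaf1 (SE 0.08, 4.63-fold, adjusted p = 1.51e-07), ranks 57 and 44 from the top of 22180 genes.

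Plk2, a polo-like kinase that acts at centrosomes and is induced by stress, read 10.58, 10.62 and 10.81 in shPhf5a, 10.52, 10.52 and 10.64 in shPaf1, and 9.01, 8.90 and 8.97 in shControl. The knockdown arrays overlapped each other and lay far above the controls. Its changes were 1.71 (SE 0.07, adjusted p = 9.53e-07) and 1.60 (SE 0.07, adjusted p = 5.28e-07), ranks 92 and 117.

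The DNA that p53 binds is a pair of decamers, each made of purines, a C, a pair of A or T bases, a G and pyrimidines, and the promoter windows of the members were searched for them because these genes are known as p53 targets. RefSeq windows (GRCm38.p6, 250 bases before to 50 after each start) were at hand for 8 of the 9 measured members, 10 windows in all. Cdkn1a and Ccng1 are shown whole, since theirs hold a pair of decamers with at most 1 mismatch, a feature of 0.627% of all 32851 windows, and capitals mark the decamers. Mdm2 and Sesn1, the other members whose windows hold a decamer without mismatch, are shown around it.
Cdkn1a, upstream start, chr17:29090729-29091028, plus strand: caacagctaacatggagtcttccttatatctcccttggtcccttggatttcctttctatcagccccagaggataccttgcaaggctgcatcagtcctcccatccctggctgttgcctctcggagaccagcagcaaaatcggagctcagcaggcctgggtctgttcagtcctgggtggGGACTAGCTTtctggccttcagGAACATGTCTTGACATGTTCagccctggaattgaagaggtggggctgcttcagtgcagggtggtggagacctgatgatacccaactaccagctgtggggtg
Ccng1, chr11:40755237-40755536, minus strand: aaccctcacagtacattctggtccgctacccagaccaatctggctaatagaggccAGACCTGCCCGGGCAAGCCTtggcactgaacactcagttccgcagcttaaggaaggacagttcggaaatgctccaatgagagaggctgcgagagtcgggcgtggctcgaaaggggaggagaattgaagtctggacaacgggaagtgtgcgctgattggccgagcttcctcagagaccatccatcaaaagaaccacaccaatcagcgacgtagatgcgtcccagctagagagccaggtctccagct
Mdm2, chr10:117710925-117710954, minus strand: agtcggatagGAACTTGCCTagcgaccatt
Sesn1, downstream start, chr10:41887256-41887285, plus strand: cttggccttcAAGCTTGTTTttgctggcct

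In the Cdkn1a window the decamers GGACTAGCTT and GAACATGTCT, both without mismatch, began at -73 and -51 from the start, and TGACATGTTC, with 1 mismatch, followed directly at -41. The Ccng1 pair, AGACCTGCCC with 1 mismatch and GGGCAAGCCT with 0, began at -195. A decamer without mismatch occurred in 4 of the 10 windows, those shown, and in 8.36% of all windows; because the motif reads the same on both strands, 1 search covered both. A pair with at most 3 mismatches and a gap of at most 13 bases occurred in 3 of the 10 windows (Cdkn1a, Ccng1 and Sesn1) and in 15.6% of all windows. The windows of Btg2, Plk2, Phlda3 and Sesn2, the other Cdkn1a start and the other Sesn1 start held neither, which says only that these letters are not in those windows. A match is a description of the sequence and no measurement of binding.

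Mdm2 separated the knockdowns most clearly among the members. It read 12.06, 11.78 and 12.09 in shPhf5a, 10.95, 11.003 and 10.86 in shPaf1, and 10.98, 10.97 and 10.92 in shControl. All shPhf5a arrays lay above the rest, and the shPaf1 and shControl arrays overlapped. With shPhf5a the gene rose by 1.02 (2.03-fold, SE 0.08, adjusted p = 1.74e-05). In shPaf1 its change was -0.01 (95% interval -0.20 to 0.17, adjusted p = 0.932).

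Ccng1 encodes cyclin G1, which helps to keep Mdm2 active. It read 12.90, 12.70 and 12.82 in shPhf5a, 12.47, 12.52 and 12.53 in shPaf1, and 12.14, 12.18 and 12.24 in shControl, with the groups apart from each other. It had the smallest rise of the called members in both knockdowns, 0.62 in shPhf5a (SE 0.06, adjusted p = 4.58e-05) and 0.32 in shPaf1 (SE 0.06, adjusted p = 0.00192).

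Mdm4 and Ppm1d, also inhibitors of p53, rose in shPhf5a and did not pass in shPaf1. Sirt1, Cop1 and Rchy1, which also restrain p53, were not called higher in shPhf5a. There Sirt1 fell by 0.43 (adjusted p = 0.000745), while Cop1 (-0.01, adjusted p = 0.875) and Rchy1 (0.02, adjusted p = 0.902) did not pass. Mdm4, the Mdm2 paralog that masks p53, read 10.94, 10.82 and 11.10 in shPhf5a, 10.21, 10.29 and 10.31 in shPaf1, and 10.18, 10.26 and 10.19 in shControl. It rose by 0.74 in shPhf5a (SE 0.07, adjusted p = 4.32e-05), stood at 0.06 in shPaf1 (interval -0.10 to 0.22, adjusted p = 0.611), and differed between the knockdowns by 0.69 (adjusted p = 9.17e-05). Ppm1d, the phosphatase Wip1 that quenches p53 signalling, was picked out after its values were seen: it rose by 0.28 in shPhf5a (SE 0.06, adjusted p = 0.00348), stood at -0.02 in shPaf1 (adjusted p = 0.844) and differed by 0.30 (adjusted p = 0.00333).

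**Figure D2:**
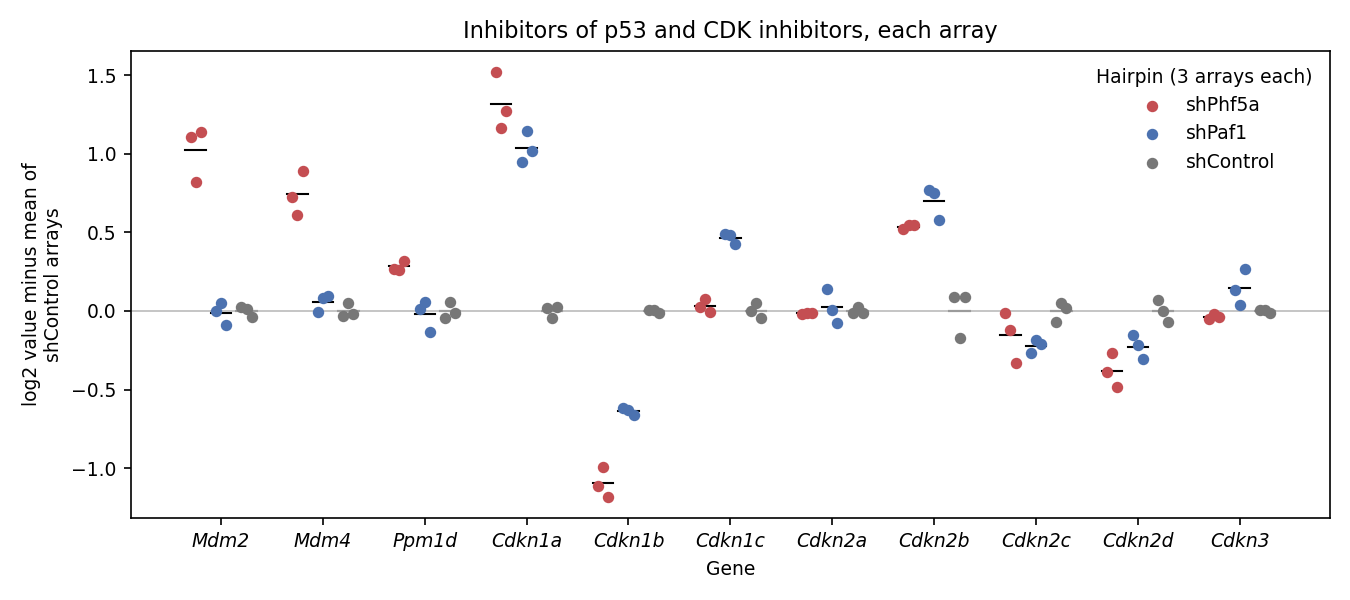
Dots are arrays, as log2 value minus the shControl mean of the gene, for 3 inhibitors of p53 (Mdm2, Mdm4, Ppm1d), Cdkn1a and 7 other inhibitors of cyclin-dependent kinases; bars are group means. The shPhf5a arrays of Mdm2, Mdm4 and Ppm1d lie above both other groups, and Cdkn1b falls in both knockdowns while Cdkn1a rises.

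Of the wider list of 21 measured regulators of p53, 6 were higher and 6 lower in shPhf5a (median -0.01), and 4 higher and 7 lower in shPaf1 (median -0.08). These counts stand beside 16.7% higher and 20.7% lower among all genes in shPhf5a, and 18.0% and 17.8% in shPaf1. The checkpoint kinase gene Chek2 fell by 0.98 in shPhf5a (SE 0.12), the acetyltransferase gene Crebbp rose by 0.89 (SE 0.09) and the p53 relative Trp73 by 0.84 (SE 0.11). In shPaf1, Crebbp rose by 1.16 (SE 0.09), the related acetyltransferase gene Ep300 by 0.84 (SE 0.08), while the ribosomal protein gene Rpl5 fell by 0.73 (SE 0.08) and the checkpoint kinase gene Chek1 by 0.66 (SE 0.09). Rpl5 has processed copies in the genome that its probe set may also read. Between the knockdowns, Hipk2, a kinase that phosphorylates p53, was lower in shPhf5a by 1.00 (SE 0.10, adjusted p = 7.57e-05), and Atr, a kinase of the replication checkpoint, was higher by 0.96 (SE 0.06, adjusted p = 5.3e-06).

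The sestrins, which restrain mTORC1 when amino acids are short, were called in opposite directions in shPaf1. Sesn1 read 9.11, 9.29 and 9.19 in shPhf5a, 8.75, 8.85 and 8.61 in shPaf1, and 9.09, 9.05 and 9.01 in shControl. The lowest shPhf5a array exceeded the highest control by only 0.02, while all shPaf1 arrays lay below the controls. The change in shPhf5a was 0.15 (interval -0.01 to 0.31, adjusted p = 0.145), which passed after quantile normalization (0.20, adjusted p = 0.0255, against a range of 0.0255 to 0.339 over 18 alternatives). In shPaf1 Sesn1 fell by 0.31 (SE 0.07, 1.24-fold, adjusted p = 0.00608).

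Sesn2 read 10.59, 10.41 and 10.55 in shPhf5a, 10.33, 10.37 and 10.21 in shPaf1, and 9.69, 9.67 and 9.78 in shControl. Both knockdowns were above the controls in every array. It rose by 0.81 in shPhf5a (SE 0.07, adjusted p = 1.84e-05) and by 0.59 in shPaf1 (SE 0.07, adjusted p = 7.76e-05). The third sestrin gene, Sesn3, which is no member, rose by 0.54 (SE 0.06) and 0.46 (SE 0.06).

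Sesn2 is also a target of ATF4, the transcription factor of the amino acid response. Of 16 ATF4 and stress genes, 5 were higher and 6 lower in shPhf5a (median 0.05), and 4 higher and 7 lower in shPaf1 (median -0.10). Across all genes 16.7% were higher and 20.7% lower in shPhf5a, and 18.0% and 17.8% in shPaf1. The mTORC1 inhibitor Ddit4 rose by 1.56 and 1.32, and the transcription factor Atf3 by 1.49 and 0.99, in shPhf5a and shPaf1. In the same order Ddit3 rose by 0.84 and 1.11, and Psat1 fell by 0.64 and 0.97. The serine synthesis gene Phgdh fell by 1.09 and 0.87, and Chac1, which degrades glutathione, fell by 0.87 and 0.97. Atf4 itself, named after its values were seen, was at 0.09 in shPhf5a (adjusted p = 0.238) and fell by 0.34 in shPaf1 (adjusted p = 0.000872).

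Zmat3 and Phlda3 rose in both knockdowns, more in shPhf5a. Zmat3, a zinc finger protein that binds RNA, read 10.23, 9.94 and 10.14 in shPhf5a, 9.75, 9.81 and 9.79 in shPaf1, and 9.14, 9.18 and 9.17 in shControl. Its groups did not overlap, and its changes were 0.94 (SE 0.07, adjusted p = 1.04e-05) and 0.62 (SE 0.07, adjusted p = 7.81e-05). Phlda3, a pleckstrin homology protein that keeps Akt from the membrane, read 10.59, 10.46 and 10.52 in shPhf5a, 10.08, 10.08 and 10.001 in shPaf1, and 9.25, 9.22 and 9.34 in shControl. Its groups were likewise apart, with changes of 1.25 (SE 0.05, adjusted p = 1.33e-06) and 0.79 (SE 0.05, adjusted p = 5.56e-06).

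Set directly against each other, the knockdowns differed in 8 of 9 members. Of these, 7 were higher in shPhf5a than in shPaf1 and Btg2 was lower, where 12.7% and 16.3% of all genes were called in those directions and 29.0% in either. The median member difference was 0.30, against -0.02 for all genes. Mdm2 had the widest gap, 1.04 (SE 0.08, 2.05-fold, adjusted p = 2.04e-05), rank 140 of 22180 genes from the top. Phlda3 followed at 0.47 (SE 0.05, adjusted p = 0.000194) and Sesn1 at 0.46 (SE 0.07, adjusted p = 0.000965).

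Zmat3 and Ccng1 were higher in shPhf5a than in shPaf1 by 0.32 (SE 0.07, adjusted p = 0.00585) and 0.30 (SE 0.06, adjusted p = 0.00402), and Btg2 was lower by 0.35 (SE 0.08, adjusted p = 0.00623). The differences of Cdkn1a (0.28, SE 0.09, adjusted p = 0.0376) and Sesn2 (0.21, SE 0.07, adjusted p = 0.033) were the weakest calls. Cdkn1a lost its call without any one of 7 arrays, the exceptions being shPhf5a replicate 2 and shPaf1 replicate 2, and its difference was 0.18 without shPhf5a replicate 1 (adjusted p of these losses from 0.0552 to 0.131). Sesn2 lost its call without any one of shPhf5a replicates 1 and 3 and shPaf1 replicates 1 and 3 (adjusted p from 0.0672 to 0.122). For Plk2 the difference was 0.11 (interval -0.05 to 0.26, adjusted p = 0.309).

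**Figure D3:**
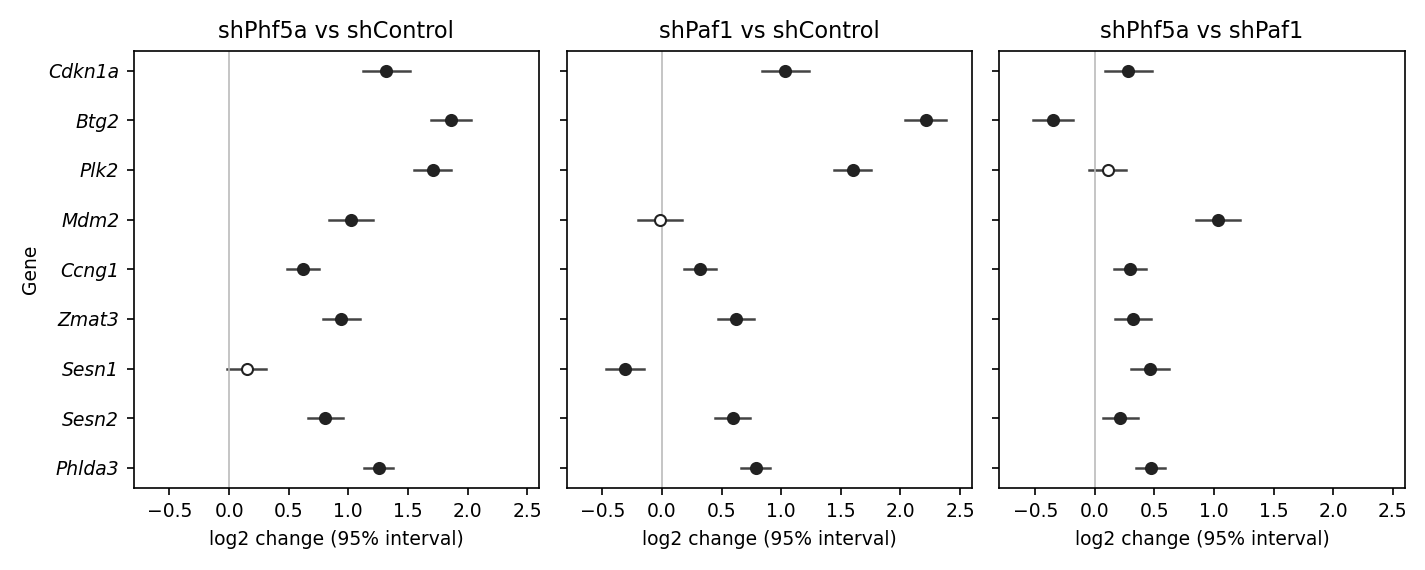
Points are fitted log2 changes with 95% intervals in each comparison, filled where the adjusted p is under 0.05. Mdm2 is open at -0.01 in the middle panel and filled near 1 in both others, and Btg2 is the member left of zero in the right panel.

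Within shPhf5a, replicate 2, the array with the most Phf5a mRNA left, was the lowest of the 3 in 7 of the 8 called members, the exception being Plk2. The median member change was 1.11, 0.82 and 1.14 in shPhf5a replicates 1, 2 and 3. That array was also the lowest in 61.9% of all 3713 genes called higher in shPhf5a. Without it 8 members were called higher and 0 lower. In shPaf1 the median member changes were 0.62, 0.66 and 0.63.

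The p53 targets outside the members mostly rose. Of 23 measured genes of arrest, repair and metabolism, 16 were higher and 1 lower in shPhf5a (median 0.80), and 13 higher and 3 lower in shPaf1 (median 0.25). Beside them, 16.7% of all genes were higher and 20.7% lower in shPhf5a (median -0.03). In shPaf1 these shares were 18.0% and 17.8% (median -0.01). Those of the 23 called lower were Tigar in both (-0.29 in shPhf5a and -0.43 in shPaf1), and Rrm2b (-0.48) and Mcm7 (-0.24) in shPaf1. The largest rises in shPhf5a were those of the mTORC1 inhibitor Ddit4l (2.06, SE 0.11), the sugar reductase Dcxr (1.78, SE 0.07) and the phosphatases Ptpn14 (1.74, SE 0.10) and Ptprv (1.67, SE 0.10), which changed by 0.66, 0.91, 0.80 and 0.72 in shPaf1. Trp53inp1, which promotes p53 activity, rose by 1.31 (SE 0.07) and 1.04 (SE 0.07). The epoxide hydrolase Ephx1 paralleled Mdm2, with 1.61 in shPhf5a, -0.07 in shPaf1 (adjusted p = 0.468) and a difference of 1.68 (SE 0.07, adjusted p = 8.02e-07). Between the knockdowns 17 of the 23 were higher in shPhf5a and 2 lower, and 11 were higher without shPaf1 replicate 1. With all 9 arrays, 12.7% of all genes were higher and 16.3% lower in that comparison.

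**Figure D4:**
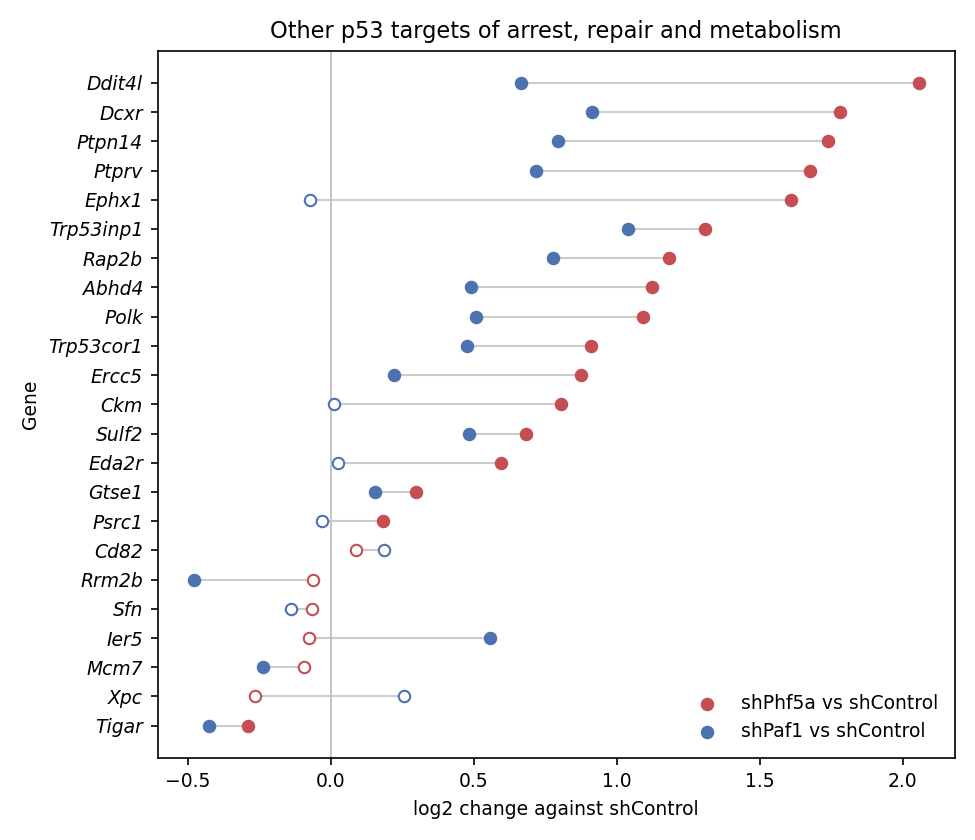
Each row is 1 of 23 p53 targets outside the members, with its log2 change in shPhf5a (red) and shPaf1 (blue) against the same shControl arrays, filled where the adjusted p is under 0.05. Ddit4l, Dcxr, Ptpn14, Ptprv and Ephx1 head the list, and Ephx1 is open near zero in shPaf1.

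Of 12 measured p53 targets of apoptosis, 8 were higher and 1 lower in shPhf5a (median 0.53), and 7 higher and 1 lower in shPaf1 (median 0.34). All genes gave shares of 16.7% higher and 20.7% lower in shPhf5a, and 18.0% and 17.8% in shPaf1. The gene called lower was Bid in both (-0.536 in shPhf5a and -0.375 in shPaf1). Perp, a membrane protein, rose by 1.58 and 0.88 and the death receptor Fas by 1.48 and 0.62, while Pmaip1 (Noxa) rose by 1.09 in shPhf5a and stood at 0.03 in shPaf1 (adjusted p = 0.797), a difference of 1.06 (adjusted p = 7.43e-06).

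Cell cycle genes, among them cyclins, their kinases and E2F factors, were called in both directions, more often lower than higher. Of 25 measured, 4 were higher and 15 lower in shPhf5a (median -0.30) and 4 higher and 11 lower in shPaf1 (median -0.16). Lower calls also outnumbered higher ones among all genes in shPhf5a (20.7% lower and 16.7% higher). In shPaf1 the shares of all genes were 17.8% lower and 18.0% higher. Cyclin E1 (Ccne1) fell by 1.18 (SE 0.15) in shPhf5a and by 0.59 (SE 0.15) in shPaf1, and Cdk6 fell by 0.94 and 1.25 (SE 0.17 each). The cell cycle genes that rose included Rb1, the retinoblastoma brake on E2F factors, by 1.45 (SE 0.12) and 0.79 (SE 0.12), and its relative Rbl2, which rose by 0.81 in shPhf5a and was at 0.18 in shPaf1 (adjusted p = 0.182). The others called higher were Mki67, by 0.54 in shPhf5a and 0.43 in shPaf1, and Foxm1, by 0.33 and 0.65. E2f1, itself an E2F factor, rose by 0.40 in shPaf1 and was at -0.12 in shPhf5a (adjusted p = 0.129).

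Other inhibitors of cyclin-dependent kinases were called in both directions. Of 7, 1 was higher and 2 lower in shPhf5a, and 2 higher and 2 lower in shPaf1. The shares of all genes called were 16.7% higher and 20.7% lower in shPhf5a, and 18.0% and 17.8% in shPaf1. Cdkn1b (p27) read 7.19, 7.31 and 7.12 in shPhf5a, 7.69, 7.68 and 7.65 in shPaf1, and 8.31, 8.31 and 8.29 in shControl, with no overlap between groups. It fell by 1.09 (SE 0.05, adjusted p = 2.07e-06) and 0.63 (SE 0.05, adjusted p = 1.57e-05). Cdkn2b (p15) rose by 0.54 (SE 0.08) and 0.70 (SE 0.08), Cdkn2d (p19) fell by 0.38 (SE 0.07) and 0.23 (SE 0.07), and Cdkn1c (p57) rose by 0.47 (SE 0.05) in shPaf1 and was at 0.03 in shPhf5a.

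Paralogs and family relatives of the members were also called in both directions. For all genes the shares were 16.7% higher and 20.7% lower in shPhf5a, and 18.0% and 17.8% in shPaf1. Of 18, 4 were higher and 5 lower in shPhf5a, namely Btg1 (0.83), Mdm4, Sesn3 and Plk3 (0.53) upward and Phlda2 (-0.87), Plk5 (-0.84), Zmat5 (-0.67), Zmat2 (-0.63) and Gdf3 (-0.54) downward. In shPaf1 6 were higher, namely Ccng2 (0.68), Tob2 (0.68), Btg1 (0.65), Plk3 (0.49), Sesn3 and Tob1 (0.26), and 4 lower, namely Phlda2 (-1.18), Gdf3 (-0.63), Plk5 (-0.55) and Zmat2 (-0.54). Phlda1, Plk1, Plk4, Btg4, Zmat1 and Zmat4 passed in neither. Ccng2, the paralog of Ccng1, was lower in shPhf5a than in shPaf1 by 0.59 (SE 0.12, adjusted p = 0.00462), whereas Ccng1 was higher.

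Btg2 and Plk2 are also immediate early genes, which growth signals induce within minutes. Of 19 other measured immediate early genes, 10 were higher and 5 lower in shPhf5a (median 0.22) and 13 higher and 1 lower in shPaf1 (median 0.37). Over all genes 16.7% were higher and 20.7% lower in shPhf5a, and 18.0% and 17.8% in shPaf1. The matricellular gene Ccn1 (2.16 and 1.86) and the AP-1 gene Jun (2.07 and 1.82) rose in both. The zinc finger factor Egr1 was lower by 1.39 in shPhf5a than in shPaf1 (adjusted p = 1.08e-05). Against the controls Egr1 fell by 0.78 in shPhf5a and rose by 0.61 in shPaf1, whereas Btg2 rose in both.

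The genes whose 9 arrays, each centred on the gene's control mean, lay closest to those of Cdkn1a were Gaa, Zfp362, Trp53inp1, Fat1 and Trio, with root mean square differences of 0.07, 0.07, 0.08, 0.08 and 0.08 log2 units. Among the members Phlda3 was closest (0.17), with 52 of the other genes nearer, and Sesn1 farthest (1.04).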

How the data were processed

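RNA of 9 samples was read on Affymetrix expression arrays after whole-transcript labelling of 125 ng total RNA, per the labels' protocols. The deposited table holds log2 expression values that the authors had normalized, 33793 probe sets per array. Neither the method of normalization nor the base of the logarithm is stated in the labels, so log2 was inferred from the range (4.35 to 13.7); with another base the folds would differ and the calls would not. Nonspecific hybridization compresses changes of dim genes, scan batches were not analysed here, and the number of arrays limits the precision.

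The platform annotation pairs 23521 probe sets with 1 symbol and 1814 with several, and leaves 8458 unlisted; 23328 of the first were found in RefSeq (GRCm38.p6), 0 under another symbol. The probe set with the highest mean was kept per gene. limma 3.58.1 (lmFit, eBayes; R 4.3.3) fitted 1 mean per group over all 9 arrays, with Benjamini-Hochberg adjustment over 22180 genes at 0.05. Levels were not compared between genes. Promoters came from RefSeq.

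The members and lists were chosen with earlier results of these data known. Named genes were the members, Phf5a, Paf1, paralogs, up to 4 called genes with the largest change per list and comparison, and the 5 genes closest to Cdkn1a. Ppm1d, Atf4, Sirt1, Cop1, Rchy1, Mki67, Tigar, Rrm2b, Mcm7, Bid and the cell type markers were named outside this rule, after their values were seen. The scripts were tested on simulated data. Samples with the same replicate number were checked for pairing, and the numbers were not treated as pairs.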

Additional observations from a re-analysis of the deposited data

How the results depend on the processing

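Each member change was refitted under 18 alternatives (9 changes of method, and leaving out each of the 9 arrays). Of 486 such values, 467 kept their direction and their side of the threshold. After quantile normalization Sesn1 in shPhf5a passed (0.20, adjusted p = 0.0255) and Mdm2 in shPaf1, which passed nowhere (adjusted p from 0.708 to 0.993), had the opposite sign (0.0495). Without single arrays that Mdm2 change ranged from -0.0455 to 0.0246, the highest being that without shPaf1 replicate 3. The difference of Cdkn1a between the knockdowns (0.28) did not pass with all probe sets tested (adjusted p = 0.0502), with only the 6 arrays compared (0.0906) or with the replicate block (0.0604), and ranged from 0.18 to 0.36 without single arrays (adjusted p from 0.00909 to 0.131 over all alternatives). That of Sesn2 (0.21) did not pass with the 6 arrays compared (0.0658) or the replicate block (0.0587), and ranged from 0.17 to 0.27 without single arrays (0.0103 to 0.122 over all alternatives). The cause of these losses was not tested. Same-numbered arrays had correlations of their deviations from -0.06 to 0.11, 1 of 9 pairs over 0.1, and 4 of 9 arrays correlated best with their own number. No clear pairing was seen, though 3 arrays per group are too few to exclude a shared batch or culture. The block changed no other member's call.

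Counts over all genes and over members stayed within 1.5 times the reported counts. For the lists, 60 counts moved further. Among those printed, genes of arrest, repair and metabolism higher in shPhf5a than in shPaf1 numbered 17, and 11 without shPaf1 replicate 1, with 2 lower and 1 in 5 alternatives. Lower in shPhf5a were 1 of these and 1 of the apoptosis targets, each 2 in 2 and 5 alternatives. Of the kinase inhibitors 2 were lower in shPaf1 and 1 in 4 alternatives, and of the immediate early genes 1 and 2 in 2 alternatives. Dim genes have compressed changes, which limits what the array shows of them.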
